A study of Mus musculus with 4 samples.

Results

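Ring1b occupancy was examined at 5 genes of the Gata family, Gata2, Gata3, Gata4, Gata5 and Gata6, in a deposited table of 6371 regions associated with Ring1b peaks of wild-type cells. Members were the regions overlapping a window around each gene (build mm9): Gata2 on chromosome 6 from 88.11 to 88.2 Mb, Gata3 on chromosome 2 from 9.74 to 9.85 Mb, Gata4 on chromosome 14 from 63.78 to 63.91 Mb, Gata5 on chromosome 2 from 180.02 to 180.11 Mb and Gata6 on chromosome 18 from 11.01 to 11.13 Mb. Only Gata4 had any, with 3 regions. Gata2, Gata3, Gata5 and Gata6 were absent from the table.

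The cells were C3H10T1/2, a mesenchymal progenitor line derived from C3H mouse embryos, at passage 10 to 15. They stably expressed histone H3.3 with a FLAG-HA tag, either wild type (WT) or with methionine in place of lysine at residue K36 (K36M). The study asked how Ring1b is spread over the genome in each kind of cell. Chromatin immunoprecipitation with a Ring1b antibody followed by sequencing gave 1 Ring1b library for each form, and values of the 2 input libraries were not used here. The labels do not say whether each line is a single clone or how much of its H3.3 carries the tag. The table holds no expression values, so the cell type could not be checked against its markers.

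Gata factors are zinc-finger transcription factors that bind the sequence after which they are named. Gata2 acts in blood stem cells and holds back fat cell formation, Gata3 directs T-cell and trophoblast development, and Gata4, Gata5 and Gata6 act in heart, gut and other tissues of mesoderm and endoderm. Genes of this kind are typical targets of Polycomb repression. Ring1b is the catalytic subunit of Polycomb repressive complex 1, which ubiquitinates histone H2A and compacts chromatin at genes that are kept silent, often where the DNA is rich in CpG dinucleotides.

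CpG-rich promoters were found for the members without a Ring1b region for which the RefSeq table (GRCm38.p6) holds a sequence, namely Gata2 with 2 start sites, Gata3 and Gata5; Gata4 and Gata6 have no sequence shown. The 250 bases upstream of each start are printed to show this, 5′ to 3′, with every CG in capitals (the same letters on both strands).
Gata2 start 1, chr6:88193641-88193890, plus strand: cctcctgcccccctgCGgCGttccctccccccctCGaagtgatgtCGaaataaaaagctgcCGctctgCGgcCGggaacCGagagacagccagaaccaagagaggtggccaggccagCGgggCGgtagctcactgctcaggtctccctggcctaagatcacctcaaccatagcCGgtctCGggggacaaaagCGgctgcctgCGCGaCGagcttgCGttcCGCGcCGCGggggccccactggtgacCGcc
Gata2 start 2, chr6:88198414-88198663, plus strand: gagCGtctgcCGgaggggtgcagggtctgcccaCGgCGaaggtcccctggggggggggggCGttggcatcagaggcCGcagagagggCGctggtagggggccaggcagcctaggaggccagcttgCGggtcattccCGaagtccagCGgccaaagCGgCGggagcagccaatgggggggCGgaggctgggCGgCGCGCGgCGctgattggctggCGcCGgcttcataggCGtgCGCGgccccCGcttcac
Gata3 start 1, chr2:9878601-9878850, minus strand: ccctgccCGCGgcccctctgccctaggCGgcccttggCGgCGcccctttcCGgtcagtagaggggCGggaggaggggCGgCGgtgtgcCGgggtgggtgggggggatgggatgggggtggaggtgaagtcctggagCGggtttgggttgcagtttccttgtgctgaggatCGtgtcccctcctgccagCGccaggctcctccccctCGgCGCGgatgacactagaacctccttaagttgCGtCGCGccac
Gata5 start 1, chr2:180334680-180334929, minus strand: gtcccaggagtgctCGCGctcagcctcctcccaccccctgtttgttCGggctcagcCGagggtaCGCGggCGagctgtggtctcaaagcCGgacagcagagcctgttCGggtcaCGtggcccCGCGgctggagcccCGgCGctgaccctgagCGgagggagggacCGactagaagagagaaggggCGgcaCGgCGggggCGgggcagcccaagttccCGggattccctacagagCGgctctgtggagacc
The start sites of Gata2 held 22 and 24 CG, that of Gata3 held 19 and that of Gata5 held 22, against a median of 6 over 32851 promoters of the same length. From 80.3% (Gata3) to 88.0% (the second Gata2 start) of all promoters held fewer. None of the 4 sequences held the letters GATA or, for the other strand, TATC, which 53.6% of all promoters did. The 4 sequences were 67.2 to 74% G and C, against a median of 52.4% over all promoters. Whether the absence of these letters goes beyond base composition was not tested. The promoters are on another build than the regions, and their positions were not converted.

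The 4 windows without a region together span 410 kb. Absence from the table is not a level of 0: it says only that the table gives no region associated with a WT peak there, and neither library has a value at these loci. The nearest listed region lay 118.4 kb above the Gata3 window, 164 kb below the Gata5 window, 314.4 kb below the Gata6 window and 433.6 kb above the Gata2 window. No gene name is attached to these regions, which are given as the nearest listed signal. That nearest to Gata6, a 10400-bp region at chromosome 18, 10685201 to 10695600, had a WT level of 25.5 RPM (760 reads) and a K36M level of 5.52 RPM (174 reads). Levels are in RPM, read numbers scaled for sequencing depth with a single factor for each library; region width does not enter. It was 4.62-fold lower in K36M (95% counting interval 3.91 to 5.47).
The region nearest to Gata3, 5800 bp wide at chromosome 2, 9968401 to 9974200, had a WT level of 4.62 RPM and a K36M level of 3.36 RPM, 1.38-fold lower (interval 1.06 to 1.79). Near Gata5, a 2200-bp region at chromosome 2, 179853801 to 179856000, held 2.88 and 1.36 RPM, 2.11-fold lower (interval 1.45 to 3.12). Near Gata2, a 400-bp region at chromosome 6, 88633601 to 88634000, held 1.54 and 0.159 RPM, the latter from 5 reads, 9.72-fold lower (interval 3.88 to 31.4). All 4 were lower in K36M with a counting interval of the ratio wholly below 1, as were 65.1% of all regions of the table.

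At Gata4, which encodes a factor needed for heart and endoderm formation, Ring1b was 2.88-fold lower in K36M than in WT cells over the locus. The 3 regions span 24400 bp, from 63858601 to 63883000 on chromosome 14, and cover 21200 bp of it. Summed, they came to 25.5 RPM from 761 WT reads and 8.84 RPM from 279 K36M reads, or 1.20 and 0.417 RPM per kb. The counting interval of the fold was 2.51 to 3.32, and the log2 ratio with 0.1 RPM added to each value was -1.52. The median region of the table had -0.65, and relative to it the locus had -0.86. The median region of chromosome 14 had -1.06. Levels are scaled for sequencing depth only, and whether the 2 immunoprecipitations had a like yield was not tested. Each form has 1 library, so the H3.3 forms could not be tested against replicate spread: all intervals are exact 95% intervals that cover counting error alone, and duplicates of 1 molecule cannot be told from separate molecules. In a bulk sample, Ring1b on fewer cells and less Ring1b per cell cannot be told apart. Regions were chosen by their WT peaks, a choice that by itself favours lower values in the K36M library by an amount that was not tested.

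The wide region of the locus, 13400 bp at 63858601 to 63872000, had a WT level of 11.6 RPM (345 reads, counting interval 10.4 to 12.8) and a K36M level of 5.42 RPM (171 reads, 4.64 to 6.30). It was 2.13-fold lower in K36M (interval 1.77 to 2.58). The middle region, 7400 bp at 63875201 to 63882600, lies 3200 bp further along. It had the same WT value, 11.6 RPM from 345 reads, but only 3.11 RPM in K36M (98 reads, 2.52 to 3.79), which is 3.72-fold lower (interval 2.96 to 4.71). Equal WT levels, summed over unequal widths, thus stood beside unequal K36M levels. Per kb, the middle region held 1.81 times the WT density of the wide one (interval 1.56 to 2.11). In K36M its density was 1.04 times that of the wide one (interval 0.801 to 1.34). The third region, 400 bp at 63882601 to 63883000, touches the middle one. Its WT level was 2.38 RPM (71 reads, not below 1.86) and its K36M level 0.317 RPM (10 reads, 0.152 to 0.583), 7.50-fold lower with a wide interval of 3.85 to 16.3. At none of the 3 regions did the WT and K36M counting intervals overlap.

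**Figure D1:**
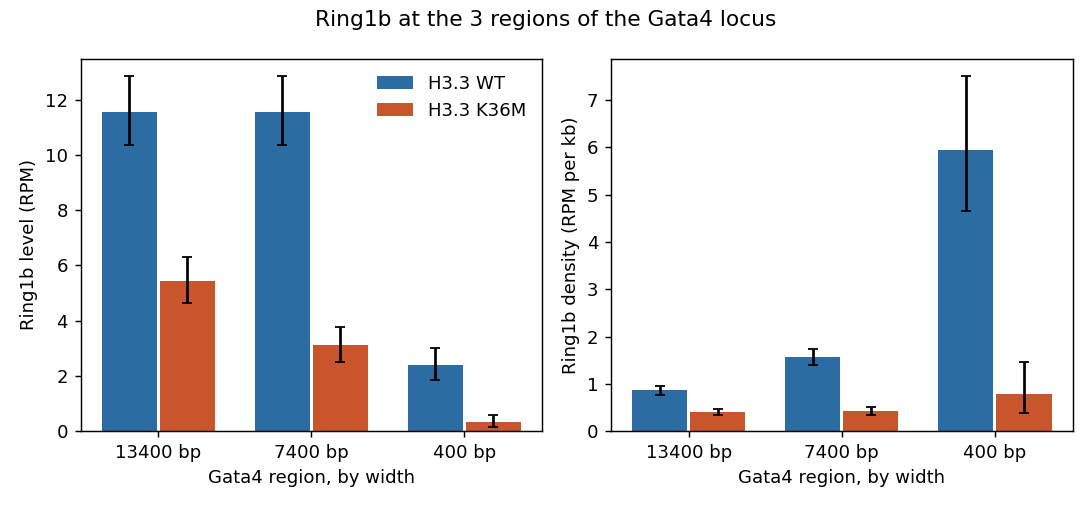
Ring1b level in RPM (left) and density in RPM per kb (right) at the 3 Gata4 regions, named by width, in the H3.3 WT and K36M libraries; bars are single libraries and error bars are exact 95% Poisson counting intervals. WT exceeds K36M at each region, and the 400-bp region has the lowest level but the highest density.

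The size of the reduction differed by more than counting error in 2 of the 3 pairs of Gata4 regions. The ratio of K36M to WT was 1.74 times higher in the wide region than in the middle one (interval 1.29 to 2.36), and 3.51 times higher than in the 400-bp region (interval 1.75 to 7.84). The middle and the 400-bp region differed 2.01-fold, with an interval of 0.985 to 4.55 that includes 1. The wide region accordingly took 45.3% of the WT reads of the locus (exact binomial interval 41.8 to 49.0%) and 61.3% of the K36M reads (55.3 to 67.0%). The share of the 400-bp region was 9.33% in WT (7.36 to 11.6%) and 3.58% in K36M (1.73 to 6.49%). Of the 16.6 RPM by which the locus was lower in K36M, 50.8% lay in the middle region, 36.9% in the wide region and 12.4% in the 400-bp region, which makes up 1.89% of the covered length.

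Per kb, the Gata4 regions differed more from one another in WT than in K36M. In WT the density was 0.863 RPM per kb in the wide region, 1.56 in the middle region and 5.95 in the 400-bp region, and no 2 of their counting intervals overlapped. In K36M the wide and middle regions stood at 0.405 and 0.420 RPM per kb, a ratio of 1.04 (interval 0.801 to 1.34). The 400-bp region stood at 0.793 RPM per kb, 1.89 times the middle region (interval 0.878 to 3.62), which its 10 reads do not separate from equal density. The highest density was 6.89 times the lowest in WT and 1.96 times in K36M. The regions were chosen by their WT peaks and not by K36M signal. How much of the wider spread in WT comes from that choice was not tested. The wide and middle regions lay low in K36M among the regions of the table: the 5th percentile of density over the 3675 regions of at least 2000 bp was 0.337 RPM per kb in K36M and 0.542 in WT. Input values were not used here, so how many of the remaining reads are background was not tested. With those percentiles taken off each library, the log2 ratio was -2.12 in the wide region, -3.42 in the middle region and -3.00 in the 400-bp region. These 3 values carry no counting interval, and the percentiles come from listed regions, not from a measured background. The lower counting limits of K36M density were 0.346 RPM per kb in the wide region and 0.341 in the middle region. Both are close to the 0.337 taken off, so the order of the 3 values is not determined.

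**Figure D2:**
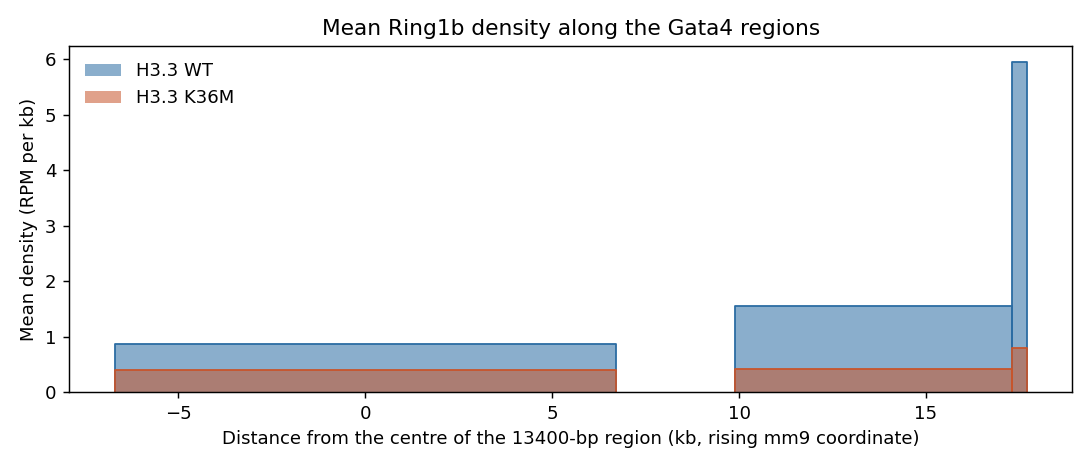
Mean Ring1b density (RPM per kb) across each of the 3 Gata4 regions, against distance in kb from the centre of the 13400-bp region, in the H3.3 WT and K36M libraries; the space between the first and second region is not listed in the table and has no value. Density climbs to 5.95 RPM per kb at the right edge in WT and reaches 0.793 RPM per kb there in K36M.

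The Gata4 regions all lay on the lower side of the table, in which most regions were lower in K36M. All 3 were at least 1.5-fold lower, as were 53.4% of all regions, and all 3 were at least 2-fold lower, as were 33.5%. With 1 RPM added in place of 0.1, the log2 ratio was -0.97 in the wide region, no longer 2-fold lower, -1.61 in the middle region and -1.36 in the 400-bp region. The 400-bp region was also at least 4-fold lower, as were 8.26% of all regions. None was higher in K36M, against 14.9% of the table. These shares are counted on the log2 ratio with 0.1 RPM added, of which the median region had -0.65. Counted on the reads instead, all 3 counting intervals of the ratio lay below 1, against 65.1% of all regions. The log2 ratio was -1.08 in the wide region, -1.86 in the middle region and -2.57 in the 400-bp region, which is -0.43, -1.21 and -1.92 relative to the median region.

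Each Gata4 region had a lower ratio than the median of its width class, and the middle region lay furthest toward the low end of its class. Of 1426 other regions of 4200 to 8000 bp, 62 (4.35%) had a lower log2 ratio, while 81.4% had a lower WT density; the median of this class was -0.64. Of 1179 other regions of 400 bp, 95 (8.06%) had a lower ratio than the 400-bp region of Gata4, with a class median of -1.03. For the wide region, 155 of 960 regions of 8200 to 16000 bp (16.1%) had a lower ratio, with a class median of -0.56. In K36M the density of the 3 regions exceeded that of 10.9 to 17.7% of their classes, and in WT that of 55.7 to 81.4%. Chromosome 14 itself had a median log2 ratio of -1.06, so that the wide region lay in the middle of its chromosome, with a lower ratio at 115 of the 233 other regions there. The middle region had 40 regions of chromosome 14 below it and the 400-bp region 16.

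**Figure D3:**
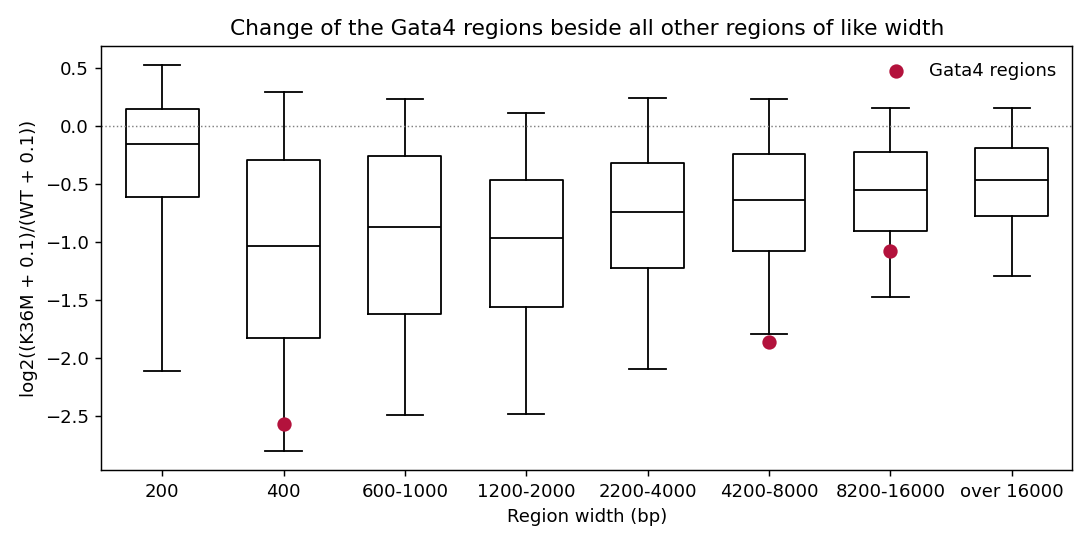
Log2 ratio of K36M to WT, with 0.1 RPM added to each value, by region width; boxes show the quartiles and median of all other regions of a width class, whiskers the 5th and 95th percentiles, and red points the 3 Gata4 regions. Each point lies below the median of its class: -1.08 against -0.56, -1.86 against -0.64 and -2.57 against -1.03.

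As a group, the Gata4 regions had a WT sum among the larger ones of the table. Their joint density was below that of the median region, which is 3000 bp wide. When regions with gaps of at most 5000 bp were joined, 108 of 4160 other groups had a higher WT sum than the 25.5 RPM of Gata4, and 610 (14.7%) had a lower log2 ratio. Among the 231 other groups of exactly 3 regions, 33 had a higher WT sum and 57 (24.7%) a lower ratio, with a median log2 ratio of -0.89. The sums are not divided by width. Per kb, the locus held 1.20 RPM in WT, below the 1.75 RPM of the median region of the table. The WT density of the wide region exceeded that of 17.9% of all other regions. For the middle region it was 46.1% and for the 400-bp region 81.1%. Narrow classes were denser in WT, with medians of 5.44 RPM per kb (400 bp), 1.10 (4200 to 8000 bp) and 0.822 (8200 to 16000 bp). Within these classes, the Gata4 regions exceeded the WT density of 57.0, 81.4 and 55.7% of the others. The step at the right edge of the Gata4 locus was also common: of 263 other touching pairs of a 400-bp region and one of at least 4200 bp, the narrow region was denser in WT in 260 and had the lower log2 ratio in 221 (84.0%). The difference was -0.71 at Gata4 and had a median of -0.60 over the other pairs, 115 of which had a lower one. The listed regions next to the locus were a 400-bp region 651.4 kb below the window, with 2.31 RPM (WT) against 0.951 RPM (K36M), and a 200-bp region 346.2 kb above it, with 1.68 and 0.412 RPM. Both were lower in K36M, 2.43-fold (interval 1.56 to 3.87) and 4.06-fold (interval 2.18 to 8.16).

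The table names no genes, and no annotation of mm9 was used here, so that exon, intron or promoter positions within the Gata4 locus are not given. In the RefSeq gene order of GRCm38.p6, the protein-coding neighbours of Gata4 are Neil2, a DNA glycosylase gene, on one side and Blk, a tyrosine kinase gene of B cells, on the other. Ordered by start position, the non-coding gene Gm4151 comes between Gata4 and Blk. Whether it overlaps either gene was not determined. The Gata4 window of 130 kb is wider than the gene, which is 72799 bp long in that annotation. The 3 regions are therefore those of the Gata4 window, and which of them lie within the gene was not determined.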

How the data were processed

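Ring1b ChIP-seq values came from 1 deposited table with 1 column for each H3.3 form. The authors used Bowtie 1.0.0 with build mm9, per the submitters' processing notes; their peak caller, counting rule and treatment of duplicate reads: not given in the sources used here. Columns are headed RPKM per the file headers, but the deposited values are whole multiples of 0.0335 (WT) and 0.0317 (K36M) at every width, within a tolerance of 0.01 reads, and are called RPM here. Dividing by these steps gave reads: 1075510 (WT) and 720528 (K36M) over the whole table. Starts are counted from 1. Ratios carry exact (Clopper-Pearson) 95% intervals conditional on total reads, levels carry exact Poisson intervals, and ratios of ratios carry conditional odds-ratio intervals (scipy 1.17.1). The interval was tested on simulated reads drawn with counting error alone, a test that cannot speak to duplicate reads or to spread between libraries. Every region in a Gata window was named, since each locus had at most 8. The members and lists were chosen with earlier results of these data known. Joining regions within 5000 bp, the chromosome 14 reference and the touching pairs were chosen after the data were seen. Alternatives covered pseudocounts, centring, background, window borders, merging and a filter on low values.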

Additional observations from a re-analysis of the deposited data

How the results depend on the processing

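The Gata4 locus and each of its 3 regions were lower in K36M under every alternative tried, with sizes that depended on the setting. Changing the pseudocount, leaving out a region or taking the median could not have reversed the direction, since each region was lower. No paired analysis was possible because there is 1 Ring1b library per form. For the locus, the log2 ratio of -1.52 was -0.86 after centring on the median region, -2.97 with a background density taken off each library (the 5th percentile over regions of at least 2000 bp), -1.99 without the wide region, -1.27 without the middle region, and -1.86 as the median of its regions. A window widened by 50 kb on each side, or held to regions wholly inside it, gave the same 3 regions and -1.52. Centring gave -0.43 for the wide region, -1.21 for the middle region and -1.92 for the 400-bp region. Taking off the background density gave -2.12 for the wide and -3.42 for the middle region, the latter nominally a larger reduction than the -3.00 of the 400-bp region. These values carry no counting interval, and little K36M density is left in the wide and middle regions. A pseudocount of 1 gave -0.97 for the wide region, -1.61 for the middle region and -1.36 for the 400-bp region, which has 10 K36M reads. It left 2 regions at least 2-fold lower, without the wide one. Which of the middle and the 400-bp region was reduced most thus depended on both the background and the pseudocount. Merging regions within 2000 bp left 2 members, and leaving out the lower quartile of mean level also left 2, each at least 2-fold lower. Over all regions, the share at least 2-fold lower was 26.7% without that quartile and 36.6% without dense runs. In the width classes of the Gata4 regions it was 20.3% (8200 to 16000 bp), 28.4% (4200 to 8000 bp) and 51.4% (400 bp).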
